A study of Homo sapiens with 4 samples.

Results

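The 10 genes described here, CDKN1A, MDM2, RRM2B, XPC, CCNG1, BTG2, GDF15, SPATA18, FAS and TP53INP1, are targets of the transcription factor p53. They were taken by name from the gene column of 2 count tables, in which every stranded genomic region carries the name of the gene with the nearest transcription start. They are 10 of 27574 gene names in the tables, and they held 860 of 2310971 regions counted in total RNA and 1455 of 3814162 regions counted in RNA bound by the antibody J2. The study used the human lung adenocarcinoma line NCI-H1944, whose genotype the labels give as WT, and that line supplied every group. Cells had received either DMSO, the solvent, or BAY-1217389 at 100 nM (MPS1i), an inhibitor of the mitotic kinase MPS1, for 48 h, followed by 24 h after wash-out. From each culture 10% of the lysate gave total RNA (Input), and the remainder was precipitated with J2, which binds double-stranded RNA (dsRNA). Each of the 2 treatments thus gave an Input and a J2 library, 4 libraries in all and 1 for each group. No difference below therefore has a replicate check, every ratio compares libraries and not conditions, and the 95% intervals in brackets cover counting error only. The question the series names is how dsRNA-forming transcripts differ after the MPS1 inhibitor pulse.

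The protein p53 is kept scarce by MDM2, a ubiquitin ligase that marks it for destruction. When DNA is damaged or division goes wrong, p53 is stabilised, binds response elements in DNA and raises transcription of genes that stop the cell cycle, repair DNA or start cell death. MDM2 is itself such a target, which closes a feedback loop, and cells that missegregate chromosomes are among those in which the pathway is known to act.

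The p53 response element consists of 2 adjacent 10-base sites, and it was searched in RefSeq promoter sequences (build GRCh38.p14), each 300 bases long with 250 bases before the transcription start. The element by its consensus reads alike on both strands, so 1 search covers both, and up to 3 mismatches over the 20 bases were allowed. A match was found in 5.20% of all 35116 promoter windows. Of the 10 genes, 8 had windows, and 4 of these held a match in 5 of 14 windows. The 235 bases below are the internal promoter of MDM2 (chr12:68808767-68809001, plus strand), which lies in an intron near the start of the gene. It is shown because it held 2 matches, in capitals, and because reads were counted on it.
MDM2 internal promoter: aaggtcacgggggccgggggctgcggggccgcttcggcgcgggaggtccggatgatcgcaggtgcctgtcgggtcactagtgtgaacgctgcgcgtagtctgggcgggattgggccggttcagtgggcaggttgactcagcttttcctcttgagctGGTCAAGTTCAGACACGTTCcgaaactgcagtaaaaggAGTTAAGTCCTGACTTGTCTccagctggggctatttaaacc
The single elements follow, written 5′ to 3′ on the strand of the gene, to show how they differ among the genes that had one.
MDM2, chr12:68808923-68808942: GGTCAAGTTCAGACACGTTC
MDM2, chr12:68808961-68808980: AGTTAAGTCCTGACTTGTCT
FAS, chr10:88991309-88991328: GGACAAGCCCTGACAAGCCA
XPC, chr3:14178570-14178589: GAATTTGCCCAGACAAGCAA
GDF15, chr19:18386186-18386205: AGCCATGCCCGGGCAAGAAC
The upstream MDM2 element and the FAS element had 2 mismatches each, and the other 3 elements had 3 each. Relative to the transcription start of their window, the first base of the elements lay at -94 and -56 in MDM2, -122 in FAS, 12 in XPC and 28 in GDF15. The windows of BTG2, SPATA18, CCNG1 and CDKN1A had no match, which says only that these letters are not within those 300 bases. Of the other p53 targets listed further on, 8 of 36 genes with a window had a match, against 6.39% of all genes with one. On the plus-strand region that spans both MDM2 elements, 149 and 185 Input reads were counted in DMSO and MPS1i, and 345 and 350 J2 reads.

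Input was sequenced to 6381610 counts for DMSO and 4844956 for MPS1i, and J2 to 9793355 and 6697479. Below, a pair of counts gives DMSO and then MPS1i where no other order is named, and levels are counts scaled to the library's total (CPM). The number of regions with a read was 940751 in DMSO Input but 484849 in MPS1i Input, against 1208576 and 1176736 in the J2 libraries; the part of this gap in the results was not tested. Mitochondrial RNA took 20.2% to 24.3% of the Input libraries and 0.608% to 0.836% of the J2 libraries. Of the regions lying in the 10 genes on their strand, 17 of 326 in Input and 14 of 417 in J2 overlapped an exon. These few regions held 39.9% and 49.1% of the in-gene Input reads on that strand, and 26.1% and 31.5% of the J2 reads. Of the epithelial markers, KRT8, the keratin of simple epithelia, had 3666 and 4154 counts in Input and 320 and 351 in J2, while NKX2-1, a lung lineage factor, had 0 and 0 in Input and 0 and 3 in J2. EPCAM and CDH1, adhesion molecules of epithelia, had 19 and 1, and 109 and 73 counts in Input, and 22 and 6, and 425 and 168 in J2. Summed inside the genes on their strand, 6 fibroblast markers had 5 and 4 Input counts and 4 and 12 J2 counts, and 5 leukocyte markers with regions had 0 and 12, and 4 and 13. By gene name, which takes in neighbouring sequence, the Input sums of these lists were 16 and 97, and 35 and 103. The 3 endothelial markers had 24 and 29 Input counts and 43 and 67 J2 counts inside the genes. By name, PECAM1 among them had 789 and 334 in Input and 2914 and 682 in J2, where it was called lower. The part of these markers in the results was not tested.

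Together the 10 genes took a larger share of both kinds of library after the MPS1 inhibitor pulse. Their summed Input level was 512 CPM in DMSO and 1117 CPM in MPS1i, and their summed J2 level 1125 CPM and 2529 CPM. In bulk RNA, more cells that hold these transcripts and more transcript per cell cannot be told apart. A gene was called higher or lower when its CPM differed at least 2-fold, at least 50 counts lay behind the ratio, and the exact 95% counting interval (Clopper-Pearson) excluded a ratio of 1. In Input, BTG2, CDKN1A, MDM2, RRM2B and SPATA18 were called higher, 5 of 9 measured genes, and 0 were called lower. Over all gene names, 20.2% were called higher and 9.07% lower in that comparison, and the median log2 ratio was 0.08 against 1.11 for the 9 genes. In J2, 7 of 10 were called higher, those 5 with XPC and TP53INP1, and 0 lower, against 25.5% and 11.9% of all gene names and a median of 1.34 against 0.16. Scaling by TMM, which assumes that most genes do not differ, lowered every log2 ratio by 0.25 in Input and 0.37 in J2, and then 2 genes were called higher in Input, and 4 higher and 1 lower in J2. With that scaling 15.8% of all gene names were called higher in Input, and 19.2% higher and 21.9% lower in J2.

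**Figure D1:**
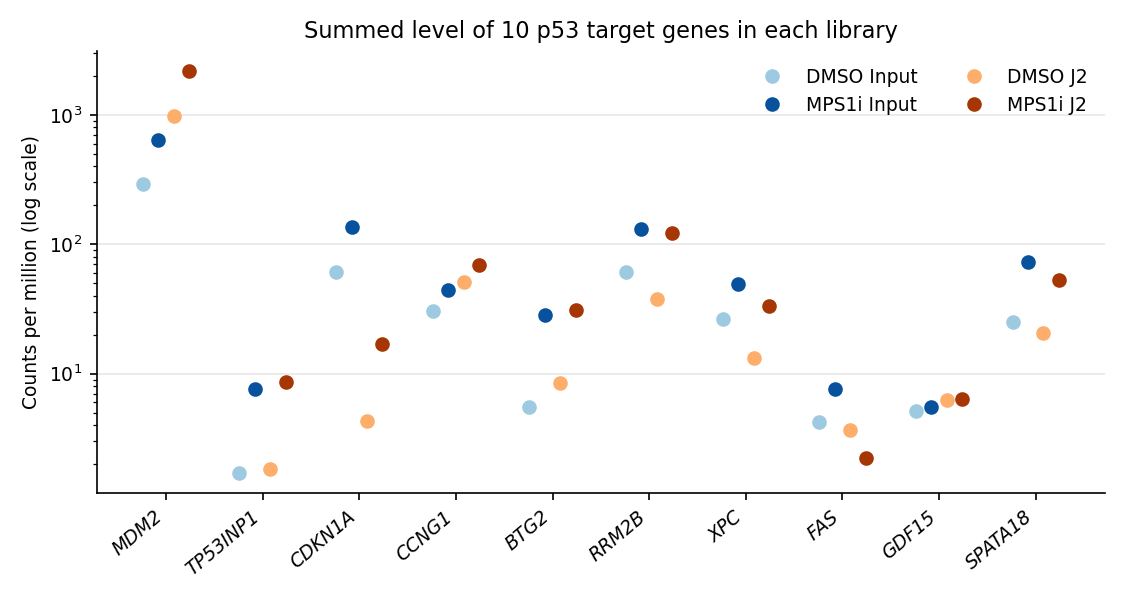
Level of each of the 10 genes in the 4 libraries, in CPM on a log scale, summed over all regions on either strand that carry the gene's name. Each point is 1 library. The dark MPS1i points lie above the pale DMSO points of the same kind for every gene except FAS in J2, where DMSO had 3.68 CPM and MPS1i 2.24 CPM; for GDF15 they nearly coincide.

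Because the gene column names the nearest start, a sum can hold reads outside the gene and on its opposite strand. A second sum was therefore made over regions that overlap the gene as annotated by GENCODE release 29 (GRCh38), on its own strand and whatever name they carry. By this in-gene sum, 4 of 9 measured genes were called higher in Input, BTG2, CDKN1A, GDF15 and SPATA18, and 0 lower, where 12.4% and 16.4% of all genes were. In J2, 4 of 7 were called higher, CCNG1, CDKN1A, RRM2B and XPC, and 0 lower, where 15.5% and 20.1% of all genes were. The medians were 0.91 in Input and 1.13 in J2, against -0.22 and -0.21 over all genes. Both sums called 3 genes in Input and 3 in J2.

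**Figure D2:**
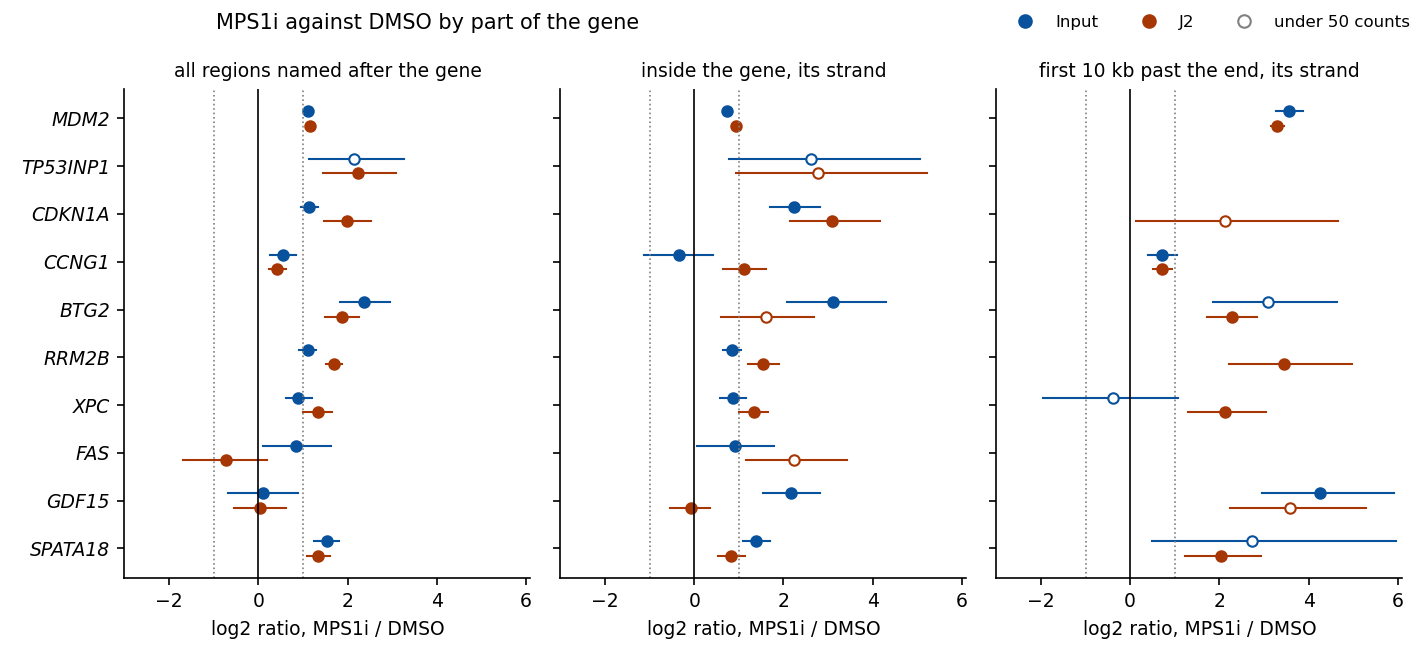
Log2 ratio of MPS1i to DMSO for each gene, from all regions with its name (left), from regions inside the gene on its strand (middle) and from the first 10 kb past its annotated end on its strand (right); blue is Input and brown is J2, lines are 95% counting intervals cut off at 6, and open circles rest on under 50 counts. Dotted lines mark 2-fold, and a gene with 0 counts in 1 library is not drawn; MDM2 lies at 0.74 and 0.94 in the middle panel and at 3.56 and 3.29 in the right panel.

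MDM2 (chromosome 12, 68808176 to 68850686, plus strand), the ubiquitin ligase of p53, held most of the reads of the group. Its regions had 1858 and 3073 counts in Input and 9577 and 14642 in J2. The log2 ratio of MPS1i to DMSO was 1.12 [1.04, 1.21] in Input and 1.16 [1.12, 1.20] in J2, so both kinds of library were higher after the pulse by a similar amount. In-gene counts were 1494 and 1890 in Input and 8608 and 11274 in J2. These gave ratios of 0.74 [0.64, 0.84] and 0.94 [0.90, 0.98], under 2-fold. On the opposite strand, the gene had 231 and 192 counts in Input and 468 and 365 in J2. Per kb of counted sequence on its strand, MDM2 had an Input level of 9.12 CPM in DMSO and 15.2 CPM in MPS1i.

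The ratio of MDM2 was not even along the gene. In the step from 20 to 25 kb after its annotated start, with regions placed by where they begin, 105 and 40 reads were counted in Input, and 447 and 196 in J2. From 40 to 45 kb, around the annotated end, the counts were 238 and 521 in Input and 931 and 2195 in J2. The step from 20 to 25 kb, chosen after its values were seen, was thus lower in the MPS1i libraries, also in CPM, while the stretch at the end was higher. Other inner steps varied. In Input the level was 35.7 CPM in DMSO and 63.2 CPM in MPS1i from 0 to 5 kb. It was 44.0 and 57.6 CPM from 5 to 10 kb, and 27.9 and 34.1 CPM from 25 to 30 kb. From 10 to 15 kb MPS1i was lower too, with 15.5 and 14.0 CPM in Input and 56.2 and 36.0 CPM in J2. In J2 the step from 25 to 30 kb was also lower, at 57.9 and 47.5 CPM. J2 was higher from 0 to 5 kb, at 59.1 and 77.6 CPM, and from 5 to 10 kb, at 55.3 and 95.1 CPM. From 35 to 40 kb, before the annotated end, MPS1i was higher in both kinds of library. The levels there were 47.2 and 113 CPM in Input and 129 and 298 CPM in J2. A 99-base intronic region on the plus strand (68824431 to 68824529) alone had 3701 counts in DMSO J2 and 5764 in MPS1i J2, and the 64-base Input region there had 0 and 4. No annotated exon overlaps that region. Without it the J2 ratio of MDM2 was 1.14 [1.10, 1.19].

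Past its annotated end, MDM2 had the largest count difference of the 10 genes. For every gene, regions on its strand that overlap the first 10 kb past the end, and no gene on that strand, were summed whole. This window was chosen after the data were seen. There MDM2 had 107 and 959 counts in Input, a ratio of 3.56 [3.27, 3.86], and 444 and 2974 in J2, a ratio of 3.29 [3.15, 3.44]. A single region of 13604 bases in the Input table, which runs beyond the window, gave 39 and 601 of the Input counts. Without it and its 13607-base J2 counterpart, the ratios were 2.79 [2.42, 3.19] and 2.85 [2.66, 3.04]. By the class supplied with each region, the rest with at least 10 reads were 3' UTR, and the long regions were intron. Opposite-strand regions named MDM2 also carry the class 3' UTR, so it does not by itself assign this sequence to MDM2. The end used here is that of GENCODE, and the values past it depend on that choice. Whether MDM2 transcripts include this sequence was not tested. The excess over the gene body, as the difference of the 2 log2 ratios, was 2.82 [2.52, 3.12] in Input and 2.35 [2.20, 2.50] in J2. The excess was the rule for the table and not for MDM2 alone: it was above 0 in 72.42% of measured genes in Input and 74.09% in J2, with medians of 0.64 and 0.66. From 10 to 20 kb past the end, 7 and 192 reads were counted in Input and 46 and 711 in J2, and from 50 to 60 kb, 0 and 80 in Input and 14 and 201 in J2. Reads on the MDM2 strand so reached at least that far in the MPS1i libraries, through sequence antisense to the neighbouring gene CPM.

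**Figure D3:**
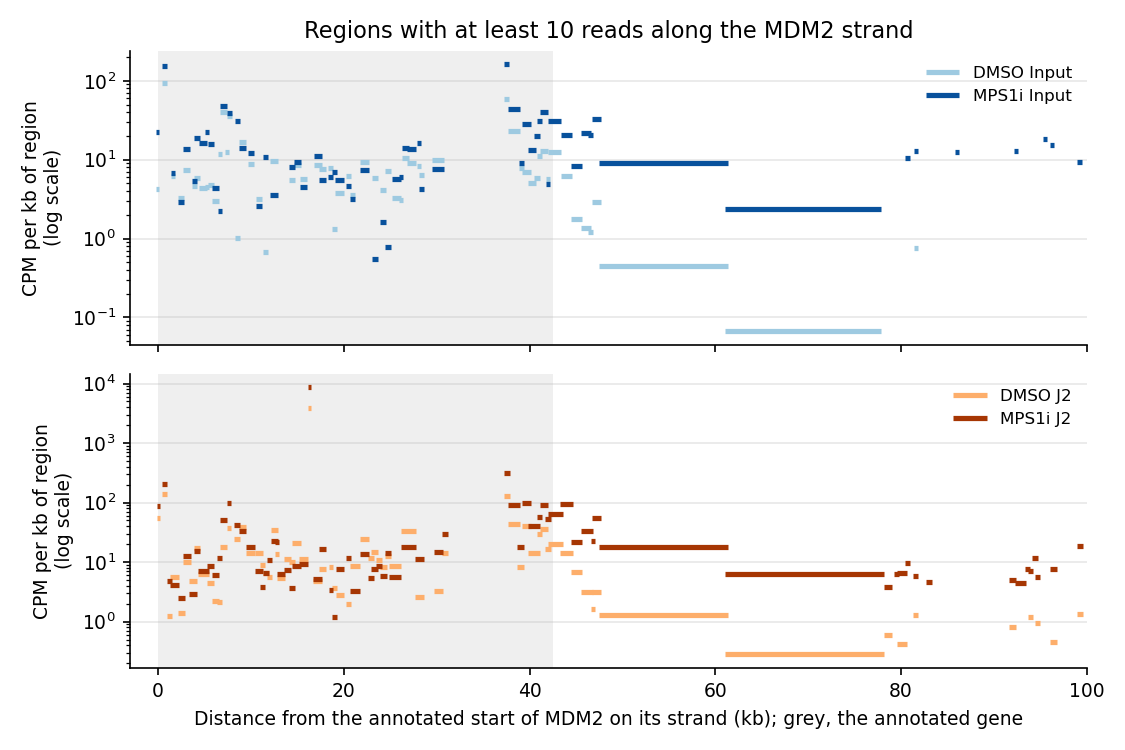
Regions with at least 10 reads on the MDM2 strand, each drawn as a line from its start to its end, with the distance from the annotated start in kb on the x axis and CPM per kb of the region on a log y axis (Input above, J2 below; a library with 0 reads in a region is not drawn). Inside the grey gene MPS1i lies above DMSO in some regions and below it in others, and past its end the 13604-base Input region had 39 reads in DMSO and 601 in MPS1i.

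TP53INP1 (chromosome 8, 94925972 to 94949411, minus strand), a nuclear protein that promotes p53-dependent cell death and takes part in autophagy, had few reads. Its regions had 11 and 37 counts in Input and 18 and 58 in J2. The J2 ratio was 2.24 [1.45, 3.09] and was called higher, whereas the Input counts summed to under 50 and were not called. On its own strand inside the gene, both kinds of library had 3 counts in DMSO and 14 in MPS1i, so most of the J2 reads were on the opposite strand, with 15 and 39.

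Of the cell-cycle genes, CDKN1A (chromosome 6, 36676460 to 36687339, plus strand) encodes p21, the inhibitor of cyclin-dependent kinases that carries out the p53 arrest. By name, the Input counts were 390 and 656, a ratio of 1.15 [0.96, 1.33], and 42 and 114 counts in J2, a ratio of 1.99 [1.47, 2.54]. Most of the Input reads were on the strand opposite to the gene, 355 and 518, and a region over the last exon (36686037 to 36687330, minus strand) alone held 282 and 394 of them. On the strand of the gene there were 35 and 126 counts in Input and 11 and 64 in J2. These gave the larger ratios of 2.25 [1.70, 2.83] and 3.09 [2.15, 4.16], and none of these reads lay in regions that overlap an exon. The opposite-strand ratio in Input was 0.94 [0.74, 1.14], below 2-fold.

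BTG2 (chromosome 1, 203305491 to 203309602, plus strand), an antiproliferative protein that promotes shortening of mRNA tails, had the largest Input ratio of the 9 measured genes. Counts were 35 and 137 in Input, a ratio of 2.37 [1.82, 2.95], and 83 and 207 in J2, a ratio of 1.87 [1.49, 2.25]. In the gene itself, they were 9 and 59 in Input, a ratio of 3.11 [2.09, 4.31], and 13 and 27 in J2. Much of its J2 signal lay past the end: 36 and 119 counts in the first 10 kb, a ratio of 2.27 [1.72, 2.85], and still 7 and 35 between 20 and 30 kb.

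CCNG1 (chromosome 5, 163437569 to 163446151, plus strand) encodes cyclin G1, which binds the phosphatase PP2A and MDM2. It had 194 and 216 counts in Input and 502 and 461 in J2, ratios of 0.55 [0.27, 0.84] and 0.43 [0.24, 0.61] after scaling, neither called. Its in-gene Input counts were 40 and 24, a ratio of -0.34 [-1.13, 0.43], and the J2 counts 63 and 94, a ratio of 1.13 [0.65, 1.61]. Of the reads with its name, 56 and 74 in Input and 154 and 117 in J2 lay past the annotated end on its strand. Upstream regions on the opposite strand held more of them, 60 and 92 in Input and 160 and 159 in J2. Regions of any name in the first 10 kb past the end had 139 and 174 counts in Input and 358 and 403 in J2, with a ratio of 0.72 in both.

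Of the repair genes, RRM2B (chromosome 8, 102204502 to 102239118, minus strand) encodes the p53-inducible small subunit of ribonucleotide reductase, which supplies nucleotides for DNA repair. Its counts were 390 and 637 in Input, a ratio of 1.11 [0.92, 1.29], and 370 and 823 in J2, a ratio of 1.70 [1.52, 1.88]. Within RRM2B on its strand, the Input counts were 338 and 462, of which 221 and 264 came from a single region of 4 bases, and the ratio was 0.85 [0.64, 1.06]. In J2 they were 108 and 216, a ratio of 1.55 [1.21, 1.90]. RRM2B also differed on its opposite strand, with 51 and 130 counts in Input, a ratio of 1.75 [1.27, 2.24], and 248 and 404 in J2, a ratio of 1.25 [1.02, 1.49]. Opposite-strand sums called 1 of 3 measured genes higher in Input and 2 of 5 in J2, RRM2B with TP53INP1, where 20.5% and 28.0% of all genes were called higher. Past the end of RRM2B, J2 counts were 6 and 45 in the first 10 kb, 7 and 144 from 10 to 20 kb and 2 and 67 from 20 to 30 kb. DMSO J2 was thus near empty along a stretch where MPS1i J2 was not. Input had the same direction at lower counts. It had 0 and 4 in the first 10 kb, 1 and 29 from 10 to 20 kb and 0 and 17 from 20 to 30 kb.

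XPC (chromosome 3, 14145147 to 14178783, minus strand), the damage sensor of nucleotide excision repair, had 170 and 241 counts in Input, a ratio of 0.90 [0.61, 1.19], just under 2-fold. In J2 it had 129 and 222, a ratio of 1.33 [1.01, 1.66], which was called. Of these reads, 158 and 234 in Input and 126 and 204 in J2 lay in the gene on its strand. The in-gene sum, which takes in regions with another name, was 173 and 239 in Input and 131 and 225 in J2. The first 10 kb past its end had 12 and 7 counts in Input and 16 and 48 in J2.

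SPATA18, also known as MIEAP (chromosome 4, 52051331 to 52097292, plus strand), takes part in the quality control of mitochondria. It had 161 and 353 counts in Input, a ratio of 1.53 [1.26, 1.81], and 203 and 352 in J2, a ratio of 1.34 [1.09, 1.60]. A region of 187 bases (52062332 to 52062518) held 97 and 247 of the Input counts, and it is the only in-gene Input region of SPATA18 that overlaps an exon. The in-gene ratios were 1.39 [1.10, 1.69] in Input and 0.83 [0.53, 1.13] in J2, so the call in J2 came with reads outside the gene, where the first 10 kb past the end had 17 and 48 counts.

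For FAS and GDF15, genes of signals between cells, many or all reads inside the gene carried another name in the tables. FAS (chromosome 10, 88990582 to 89015785, plus strand) is a death receptor of the cell surface. The regions named FAS were all upstream of it and had 27 and 37 counts in Input and 36 and 15 in J2, with ratios of 0.85 [0.10, 1.62] and -0.71 [-1.69, 0.19]. Regions inside the gene on its strand carry the name FAS-AS1, an antisense gene there. They had 21 and 30 counts in Input, a ratio of 0.91 [0.06, 1.79], and 10 and 32 in J2, too few to be called.

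GDF15 (chromosome 19, 18374731 to 18389176, plus strand), a secreted stress hormone of the TGF-beta superfamily, was not called by its name, with 33 and 27 counts in Input and 61 and 43 in J2 and ratios of 0.11 [-0.68, 0.89] and 0.04 [-0.55, 0.63]. Most reads inside the gene on its strand, 25 and 88 in Input and 85 and 55 in J2, were in regions named after the microRNA gene MIR3189. Summed inside the gene on its strand, Input had 28 counts in DMSO and 95 in MPS1i, a ratio of 2.16 [1.54, 2.82], whereas J2 had 110 and 71, a ratio of -0.08 [-0.53, 0.36]. In-gene GDF15 was thus called higher in Input and not in J2. In the first 10 kb past its end, both were higher in MPS1i, 5 and 72 counts in Input, a ratio of 4.25 [2.96, 5.91], and 5 and 41 in J2, under 50 in sum.

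The sequence past the end was higher in MPS1i for further genes of the group. In the 10-kb window 2 of 3 measured genes, MDM2 and GDF15, were called higher in Input, where 25.7% of all genes were, with a median log2 ratio of 3.56 against 0.26 over all genes. In J2, 5 of 6 were called higher, MDM2, RRM2B, BTG2, XPC and SPATA18, where 30.3% of all genes were, with a median of 2.20 against 0.39. CDKN1A had 0 counts there in DMSO Input and 20 in MPS1i Input, at least 8.78-fold higher against a floor of 3 counts. With TMM scaling the numbers called stayed at 2 and 5, where 19.5% and 22.0% of all genes were called higher.

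The second question is how strongly J2 drew each gene. J2 over Input compares CPM of the same cells, but the tables were counted over separate sets of regions, so it also moves with the sequence covered. By name, MDM2 was the only one of the 10 genes called higher in J2 than in Input, with log2 ratios of 1.75 [1.68, 1.82] in DMSO and 1.79 [1.73, 1.84] in MPS1i. The 99-base intronic region gave 38.6% and 39.4% of its J2 counts, and without that region J2 over Input was 2.06-fold and 2.09-fold. By name CDKN1A was the lowest, at -3.83 [-4.33, -3.37] in DMSO and -2.99 [-3.29, -2.70] in MPS1i. Most of its Input reads were on the strand opposite to the gene, where J2 over Input was -4.14 and -4.09. XPC was called lower in DMSO, at -1.02 [-1.36, -0.68], and FAS, by the upstream regions with its name, was called lower in MPS1i, at -1.77 [-2.74, -0.87].

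With these, 1 of 9 measured genes was called higher and 2 lower in DMSO, where 17.1% and 10.8% of all gene names were. In MPS1i 1 of 10 was called higher and 2 lower, where 15.4% and 9.31% were. The medians were -0.20 and 0.02, against 0.29 and 0.26 over all gene names. The 10 genes thus differed widely among themselves in J2 over Input, and their middle was below that of all names. Inside the gene on its strand, MDM2 stood at 1.91 [1.83, 1.99] in DMSO and 2.11 [2.04, 2.18] in MPS1i, and RRM2B at -2.26 [-2.59, -1.95] and -1.56 [-1.80, -1.33], a gene that its name sum put at -0.69 and -0.10. The in-gene RRM2B value rests largely on 2 Input regions of 4 bases each. They overlap an exon and held 264 and 352 of its 338 and 462 Input counts. J2 had 0 and 1 counts in regions that overlap an exon of RRM2B on its strand. The ratio without those regions was not computed. In-gene GDF15 lay at 1.36 [0.75, 2.01] in DMSO and -0.89 [-1.35, -0.43] in MPS1i.

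**Figure D4:**
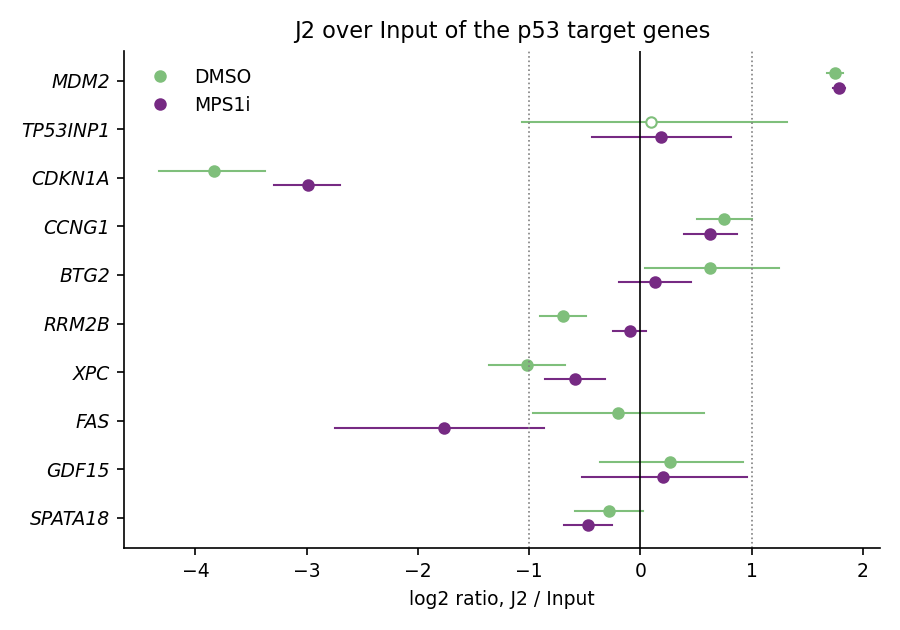
Log2 ratio of J2 to Input for each of the 10 genes in DMSO cells (green) and MPS1i cells (purple), from all regions with the gene's name; lines are 95% counting intervals, the open circle rests on under 50 counts, and dotted lines mark 2-fold. MDM2 lies right of the upper dotted line in both, at 1.75 and 1.79, and CDKN1A far to the left, at -3.83 and -2.99.

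For most genes J2 over Input itself moved little with the pulse. Of 10 genes measured by name, 0 were called higher and 1 lower for this change, where 8.75% and 6.16% of all gene names were. MDM2 changed by 0.04 [-0.05, 0.13] on the log2 scale. RRM2B, at 0.60 [0.34, 0.85], and CDKN1A, at 0.83 [0.29, 1.37], had intervals above 0 but lay under 2-fold, and FAS lay at -1.53 [-2.65, -0.42]. Of 7 genes measured inside the gene on their strand, CCNG1 was called higher, at 1.45 [0.59, 2.31], and GDF15 lower, at -2.22 [-2.96, -1.48], where 8.93% and 7.78% of all genes were.

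Inverted copies of the Alu repeat are a known source of dsRNA in introns. Regions with an Alu on their strand held 23.2% and 27.8% of the Input reads of the 10 genes in DMSO and MPS1i, and 25.5% and 25.9% of the J2 reads. Without the 99-base MDM2 region the J2 shares were 38.4% and 39.2%. Without MDM2 the shares were 16.1% and 14.9% in Input and 40.2% and 32.0% in J2. For those 9 genes regions that hold an Alu thus took a larger share of J2 than of Input reads in both treatments. A single RRM2B region of 34314 bases on the opposite strand gave 248 and 404 of the 581 and 734 J2 reads counted so. It names many repeats, so its reads need not lie on an Alu. The share over all genes is not given here. Regions with no repeat held 64.8% and 59.7% of the Input reads and 43.1% and 43.2% of the J2 reads of the same 9 genes.

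Many other known p53 targets were called higher too. Of 45 listed genes, 40 were measured by name in Input, 19 were called higher and 0 lower, with a median log2 ratio of 0.89, and in J2 20 of 43 were called higher and 1 lower, with a median of 0.83. Over all gene names, 20.2% were called higher and 9.07% lower in Input, and 25.5% and 11.9% in J2. Inside the gene on its strand the numbers were 10 higher and 1 lower of 31 in Input, and 12 higher and 1 lower of 32 in J2. Of all genes by that sum, 12.4% were called higher and 16.4% lower in Input, and 15.5% and 20.1% in J2. Of the 19 called higher by name in Input, 9 were also called inside the gene, 3 were not (FDXR, NINJ1 and TNFRSF10B), and 7 had under 50 counts there. Those 7 were BBC3, GADD45A, IER5, PHLDA3, PLK2, RAP2B and ZMAT3. Of the 20 in J2, 11 were also called inside the gene, TNFRSF10B was not, and 8 had under 50 counts there. Those 8 were BBC3, IER5, NINJ1, PHLDA3, PLK2, RAP2B, TP53TG1 and ZMAT3. This list was drawn up with earlier results of these data known, and its counts are read against the shares over all genes given above for each sum. Its calls were not repeated with TMM scaling, which lowers every log2 ratio by 0.25 in Input and 0.37 in J2.

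Among the cell death genes, PMAIP1 (NOXA, a BH3-only protein that opposes MCL1) had 157 and 676 counts in Input and 151 and 460 in J2, with ratios of 2.50 and 2.16. BBC3 (PUMA, another BH3-only protein) lay at 1.87 and 1.79, and the death receptor gene TNFRSF10B at 2.17 and 1.80. Inside the gene on its strand TNFRSF10B lay at 0.80 [0.61, 1.00] in Input and -0.16 [-0.29, -0.04] in J2, called in neither. PHLDA3, which restrains AKT, lay at 1.77 and 1.75, and EDA2R, a receptor of the TNF family, at 1.67 and 2.05. BID was called lower in J2, with 70 and 17 counts and a ratio of -1.49, and BAX, the pore-forming effector, was not called at -0.22 and 0.10.

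Among the arrest and growth genes, the kinase PLK2 had 42 and 151 counts in Input and 17 and 192 in J2, with ratios of 2.24 and 4.05. Inside the gene on its strand PLK2 had no J2 reads. Its in-gene Input ratio of 2.40 [0.07, 5.67] rested on under 50 counts. ZMAT3, an RNA-binding zinc finger protein, lay at 1.93 and 1.78, SERTAD1 at 1.30 and 1.84, and TOB1, a relative of BTG2, at 1.15 and 1.56. GADD45A, a stress sensor, was called in Input only by the rule, at 1.51 against 0.30 in J2, and E2F7, a transcriptional repressor, in J2 only by the rule, at 1.22 against 0.22 in Input. The sestrin genes SESN1 and SESN2 were called in neither, with 0.85 and 0.57 in Input.

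Of the metabolic and other targets, RAP2B (a small GTPase) had 88 and 325 counts in Input and 132 and 818 in J2, with ratios of 2.28 and 3.18. ACER2, an alkaline ceramidase, lay at 2.23 and 2.80, TIGAR, which lowers fructose-2,6-bisphosphate, at 2.11 and 1.43, and IER5 at 1.87 and 2.55. RAP2B and IER5 had no value inside the gene on their strand. CSF1, a macrophage growth factor, lay at 1.64 and 1.91, NINJ1, which ruptures membranes in dying cells, at 1.44 and 2.05, and SAT1, which acetylates polyamines, at 1.31 and 1.07. DRAM1, of autophagy, and FDXR, ferredoxin reductase, were called in Input, at 1.29 and 1.02, with 0.77 and 0.83 in J2. KITLG (the KIT ligand), CES2 (a carboxylesterase) and the noncoding TP53TG1 were called in J2, at 1.47, 1.05 and 3.89. FBXO22, a ubiquitin ligase subunit, was called lower inside the gene in Input, with 161 and 51 counts and a ratio of -1.26. The repair genes DDB2, POLH and FANCC were not called, with Input ratios of 0.80, 0.24 and -0.68.

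**Figure D5:**
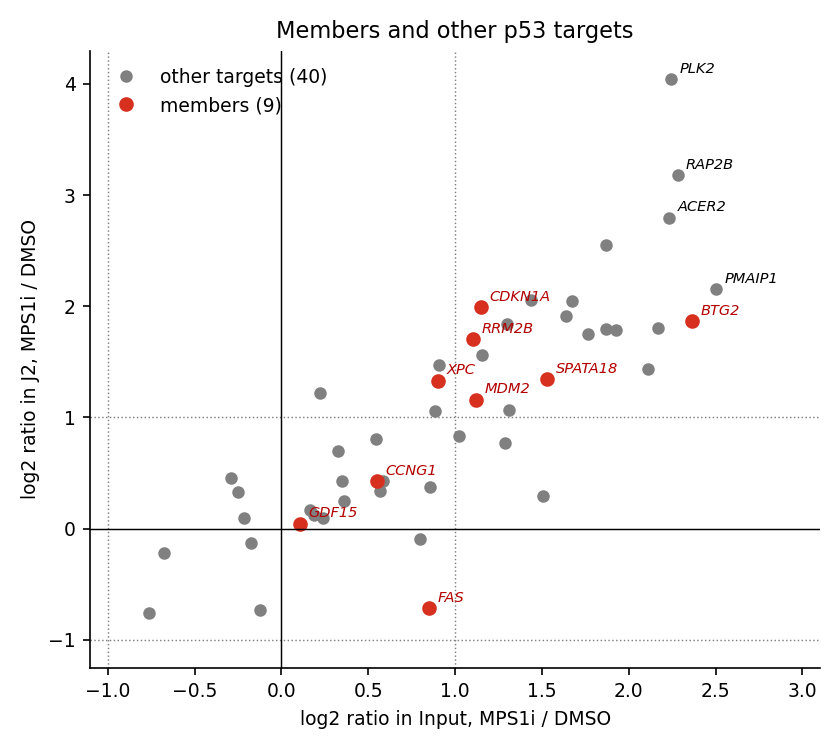
Log2 ratio of MPS1i to DMSO in Input (x axis) and J2 (y axis) by gene name, for the 9 of the 10 genes measured in both (red) and 40 other p53 targets (grey); dotted lines mark 2-fold. Most points lie right of and above 0, PLK2 is highest in J2 at 4.05, and FAS is the red point below 0 in J2. None of the J2 reads of PLK2 lay inside the gene on its strand.

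The regulators upstream of p53 did not share that direction. Of 11 measured of 12, 1 was called higher and 4 lower in Input, with a median of -0.38, and 1 higher and 4 lower in J2, with a median of -0.57. Over all gene names, 20.2% were called higher and 9.07% lower in Input, and 25.5% and 11.9% in J2. MDM4, the relative of MDM2 that restrains p53, lay at -1.07 and -1.02, and USP7, which removes ubiquitin from both p53 and MDM2, at -1.43 and -1.75, all called lower. The damage kinase genes ATM and ATR were called lower in Input, at -1.29 and -1.05, and the checkpoint kinase gene CHEK1 and the p53 phosphatase gene PPM1D in J2, at -1.24 and -1.20. TP63, a transcription factor of basal epithelial cells, was called higher by name, at 1.45 and 1.38, while 0 of the 11 measured regulators were called higher inside the gene on its strand in either comparison and 4 were called lower in each, where 16.4% and 20.1% of all genes were called lower.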

How the data were processed

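Read counts were deposited by the authors as raw, whole-number counts per stranded region, in a table for Input and another for J2. Per the submitters' processing notes the build was GRCh38 (hg38), and the tools named are STAR, featureCounts, HOMER, cutadapt, Trimmomatic and Trim Galore. Their versions and roles, the calling of regions and the handling of multiple mapping and duplicates were not given in the sources used here. RNA was purified with TRIZOL and libraries were made with a stranded total RNA kit, per the labels' protocols. Regions with no gene name (0.65% to 23.6% of a library's counts) stayed in the totals and out of gene sums. Counts were summed per gene name, and per GENCODE release 29 gene on its strand, and scaled to CPM (Python 3.11.15, pandas 2.3.3, scipy 1.17.1, bedtools 2.31.1; TMM and upper-quartile factors by edgeR 4.0.16 in R 4.3.3). No test across replicates exists with 1 library per group. Ratios carry exact 95% counting intervals; the change of J2 over Input and the excess past the end carry delta-method intervals on counts plus 0.5, with at least 50 J2 and 20 Input counts for a call of the former. A count of 0 was set to 3 in a fold. PCR duplicates are not independent molecules, so intervals cover counting error only. The calling was tested on simulated data. All 10 genes, other listed p53 genes that were called, and the 3 most-read regions of a gene could be named; further genes and regions were chosen after their values were seen. Genes and lists were chosen with earlier results of these data known. The effect of 11 other settings is given in the closing section.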

Additional observations from a re-analysis of the deposited data

Results flagged for a closer look

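3 genes were called for a change of J2 over Input between DMSO and MPS1i cells. A call needed at least 2-fold, a log2 interval that excludes 0, and at least 50 J2 and 20 Input counts. By name, 8.75% of all gene names were called higher and 6.16% lower for this change. Inside the gene on its strand, 8.93% and 7.78% of all genes were. In-gene BTG2, at -1.47 [-2.83, -0.11], was not called, with 13 and 27 J2 counts. By regions with its name, FAS had a change of -1.53 on the log2 scale [-2.65, -0.42], from 27 and 37 Input counts and 36 and 15 J2 counts in DMSO and MPS1i. Those regions all lie upstream of the gene, and with a minimum of 100 counts FAS could not be called. Inside the gene on its strand, CCNG1 changed by 1.45 [0.59, 2.31], from 40 and 24 Input counts and 63 and 94 J2 counts. GDF15 changed by -2.22 [-2.96, -1.48] inside the gene, from 28 and 95 Input counts and 110 and 71 J2 counts. By regions with their names the same changes of CCNG1 and GDF15 were -0.13 [-0.46, 0.21] and -0.06 [-0.98, 0.85]. Each difference was judged by its counting interval, with 1 library per group.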

How the results depend on the processing

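No paired analysis was possible because each group has 1 library. The number of genes called higher was 5 in Input and 7 in J2. It became 2 and 4 with TMM factors, with 1 lower in J2; 1 and 2 when each region counted at most once; and 4 in J2 inside the gene on its strand. For J2 over Input in DMSO (1 higher, 2 lower) it became 2 higher inside the gene and 2 without the most-read region of each gene, 0 higher and 0 lower with each region counted once, and 1 lower on the strand of the gene only or with regions of at least 5 reads. In MPS1i (1 higher, 2 lower) it became 2 higher inside the gene and 2 without the most-read region, 0 higher with each region counted once, and 1 lower on the strand of the gene only, with each region counted once, without the most-read region, with regions of at least 5 reads and with a minimum of 100 counts. For the change of J2 over Input (0 higher, 1 lower) it became 1 higher on the strand of the gene only, inside the gene and without the most-read region, and 0 lower on the strand of the gene only, without the most-read region, with regions of at least 5 reads and with a minimum of 100 counts. With each region counted once, MDM2 reversed to -0.0498 in J2, and its J2 over Input to -0.36 in DMSO and -1.17 in MPS1i; that setting removes depth within a region. Of the single-gene values under 11 other settings, 336 kept within their interval, 117 moved beyond it and 3 reversed; beyond those stated, the cause was not tested. Genes with under 50 counts, such as TP53INP1 in Input, could not be called at this depth.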
